A study of Mus musculus with 12 samples.

Results

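Liver cells from which many transcripts were captured were set against liver cells of the same library from which few were captured. A cell counted as RNA-rich at 6000 to 10000 unique molecular identifiers (UMIs, tags that make each count a molecule and not a read) and as RNA-poor at 2000 to 3500 UMIs. On both sides at least 8% of the UMIs were mitochondrial and the intronic fraction was 0.15 to 0.4. Of 31003 cells, 13696 lay within both gates, and 6281 of these were members, 1099 RNA-rich and 5182 RNA-poor. Total UMIs, mitochondrial percent and intronic fraction chose the members, so their values are given as a description and support nothing.

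The cells came from wild-type mice of the inbred strain 129S6/SvEv, whose ages the labels do not give. The 4 groups were females and males at zeitgeber time (ZT, hours after lights on) 10 and 22, with 3 samples in each. Each sample is called a library below, although the cell names of male ZT10 replicate 2 carry 2 library marks, with 406 and 88 cells, which were summed as 1. Livers were digested by perfusion with collagenase, hepatocytes were enriched by a spin, and the cells were frozen and thawed before they were loaded on a 10x Genomics Chromium v3 device. Hepatocytes were therefore preferred, and other cell types were depleted and not removed.

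Hepatocytes are the large, metabolically active cells of the liver. They are rich in mitochondria, differ in ploidy, and divide metabolic tasks along the blood flow from portal to central vein. Cells of higher ploidy are larger and hold more RNA. The number of UMIs of a cell depends on its RNA content and also on how much of that RNA is lost or captured. The depth of a cell alone does not tell these apart.

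The count table identifies its 18326 features by row number, and the files do not pair these numbers with gene names. No gene, pathway or cell type is named below, markers of hepatocytes and of other liver cells could not be read, and no comparison gives more than 2 rows in each direction. The 13 mitochondrial rows are known because their sum equalled the deposited mitochondrial percent in all 31003 cells, and every other row is called nuclear. The 12 libraries held 494 to 3949 cells and 2284202 to 14654630 UMIs. Of 30883 distinct barcodes, 120 occurred in 2 libraries, and among the members 3 of 6278 did.

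The comparison was made within libraries. Male ZT22 replicate 2 had 2 RNA-rich cells against 266 RNA-poor cells and was left out, since 20 cells were required on both sides. The 11 libraries tested, 6 female and 5 male, 6 from ZT10 and 5 from ZT22, had 31 to 186 RNA-rich and 88 to 796 RNA-poor cells, 1097 and 4916 in all. Whether each library came from its own animal is not given in the labels. The p-values of the paired tests measure how the within-library differences vary over these libraries, and that spread may be technical. Cell names in the file headers open with 1 of 6 numbers whose meaning is not stated. Each number holds libraries of 1 time only, so it cannot be told apart from time, while 4 of the numbers hold tested libraries of both sexes.

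Median UMIs per cell averaged 6808 ± 232 (SD, n = 11 libraries) in RNA-rich and 2816 ± 122 in RNA-poor cells, with 2041 ± 161 and 1120 ± 41.8 detected rows. The gates did not make the sides equal inside their limits. The median mitochondrial percent was 20.1 ± 3.88 in RNA-rich and 16.7 ± 2.12 in RNA-poor cells, and the median intronic fraction 0.238 ± 0.034 and 0.255 ± 0.026. RNA-rich cells had the higher mitochondrial percent in all of the 11 libraries except male ZT10 replicate 2 and female ZT22 replicate 3.

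All cells were also clustered without mitochondrial rows, and 4 of 11 clusters, whose 10 leading rows were more than 8 times as abundant as elsewhere, were set apart from a main population. RNA-rich and RNA-poor cells lay in the main population to a like degree, 96.5% ± 4.12 and 96.0% ± 2.20 (SD, n = 11). Inside it they fell into different clusters. Clusters 5 and 4 held on average 38.0% and 28.8% of the RNA-rich cells against 10.3% and 13.1% of the RNA-poor cells. Clusters 1 and 3 held 40.7% and 22.8% of the RNA-poor cells against 13.7% and 4.16% of the RNA-rich cells. The clusters are built from the same counts, so their shares are a description.

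Few rows were called as different in their share of UMIs between the sides. In edgeR's quasi-likelihood test paired within library, 884 of 6428 rows tested had an unadjusted p under 0.05. Of the 6428, 243 (3.78%) passed an adjusted p under 0.05. Higher in RNA-rich cells were 100 rows (1.56%), of which 91 were nuclear, and lower were 143 (2.22%), all nuclear. The changes were small: the median difference was 0.38 on the log2 scale (1.30-fold) among the nuclear rows that rose and -0.50 among those that fell. At least 2-fold differences were found in 1 nuclear row that rose and 14 that fell, while 73 of the 91 and 84 of the 143 changed by less than 1.5-fold. The direction was the same in all 11 libraries for 19 of the 91 and 53 of the 143. Summed over levels scaled by edgeR's TMM method, the 91 rows went from 4.06% in RNA-poor cells to 5.12% in RNA-rich cells, and the 143 from 7.31% to 5.10%. These are scaled levels and not raw shares of UMIs, which are given below for nuclear UMIs.

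**Figure D1:**
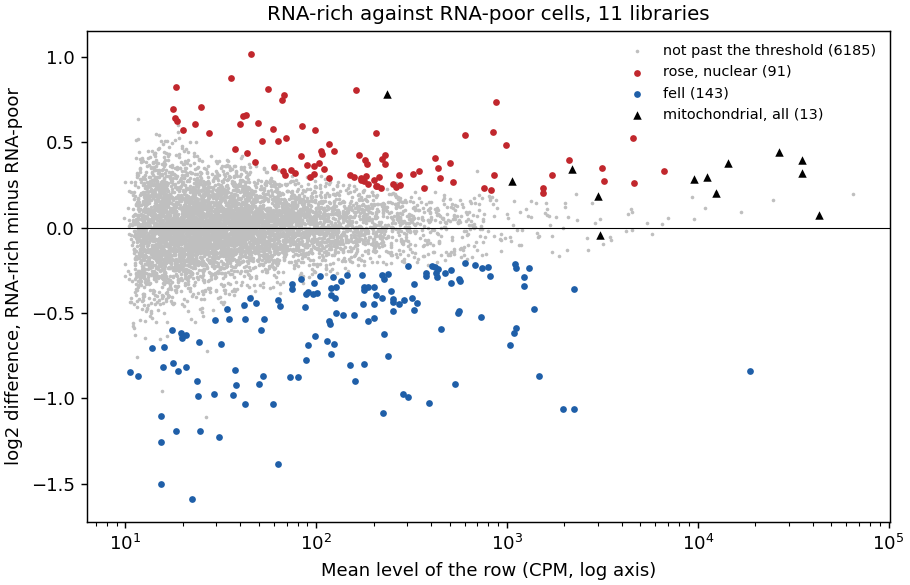
Each point is 1 of 6428 rows, at its mean level in CPM (log axis) and its log2 difference between RNA-rich and RNA-poor cells in 11 libraries. Red, 91 nuclear rows that rose; blue, 143 that fell; triangles, the 13 mitochondrial rows; most rows lie close to 0.

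Calls were more frequent among abundant rows. With the rows split by level into 5 classes of like size, 0.855% were called in the lowest class and 12.1% in the highest. Of the 100 most abundant nuclear rows, 11 rose and 17 fell. Whether detection or the rows themselves made this gradient was not tested. In data simulated from these sums, the test recovered 75 of 100 rows changed 1.5-fold and 92 of 100 changed 2-fold.

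Shares and UMIs per cell are different quantities. By the choice of the sides, an RNA-rich cell held 2.51 times the UMIs of an RNA-poor cell (2.37 to 2.66 over the 11 libraries). The median row had 2.40 times as many UMIs per RNA-rich cell, the median of the 91 nuclear rows that rose 3.13 times and that of the 143 that fell 1.74 times. As a mean over libraries, 2 of the 143 had no more UMIs per cell on the RNA-rich side than on the RNA-poor side. In every one of the 11 libraries more UMIs per RNA-rich cell were found for 63 of the 143 and 86 of the 91. These ratios follow from the choice of the sides together with the shares and are given as a description.

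Among rows of at least 100 CPM that moved the same way in all 11 libraries, row 5121 rose most. Levels are counts scaled to 1000000 UMIs of a library's side, with edgeR's TMM scaling (CPM). Its level in RNA-rich cells was lowest at 525 CPM, had a median of 983 and reached 1450, against 423, 695 and 1143 CPM in RNA-poor cells. Although the ranges overlap between libraries, every library had the higher level in its RNA-rich cells. The log2 difference was 0.56 ± 0.07 (SE; adjusted p = 6.4e-08, edgeR). Per cell, its UMIs went from 1.89 ± 0.54 to 6.55 ± 1.73 (SD, n = 11).

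Row 3983 was next, with 89.2, 257 and 436 CPM (lowest, median and highest) in RNA-rich and 45.5, 185 and 296 CPM in RNA-poor cells. The difference within libraries was smaller than the difference between them: male ZT22 replicates 1 and 3 had 89.2 and 111 CPM in RNA-rich cells, below the RNA-poor level of the 6 ZT10 libraries. The log2 difference was 0.55 ± 0.08 (SE; adjusted p = 2.3e-06, edgeR), and it was near 0 in male ZT10 replicate 1, with 186 against 185 CPM.

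Row 7095 had the largest fall under the same rule. RNA-rich cells had 72.7, 137 and 253 CPM and RNA-poor cells 132, 285 and 475 CPM (lowest, median and highest). As the rule required, all 11 libraries were lower on the RNA-rich side, with a log2 difference of -1.08 ± 0.09 (SE; adjusted p = 6.3e-14, edgeR). Per cell it had 1.00 ± 0.50 UMIs in RNA-rich and 0.85 ± 0.33 in RNA-poor cells (SD, n = 11), a ratio of 1.17 beside the 2.51 of all UMIs. The number per RNA-rich cell was the larger in 6 of the 11 libraries, and at ZT22 the means were 0.79 and 0.84.

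Row 5947, more abundant, fell alike. It held 430, 1638 and 2617 CPM in RNA-rich and 1105, 3307 and 4773 CPM in RNA-poor cells. The log2 difference was -1.06 ± 0.09 (SE; adjusted p = 1.1e-13, edgeR), and all 11 libraries were lower, as the rule required. Its UMIs per cell were 10.6 ± 6.20 and 8.34 ± 3.08 (SD, n = 11), larger in the RNA-rich cells of 7 libraries, and at ZT22 the means were 6.34 and 7.39.

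**Figure D2:**
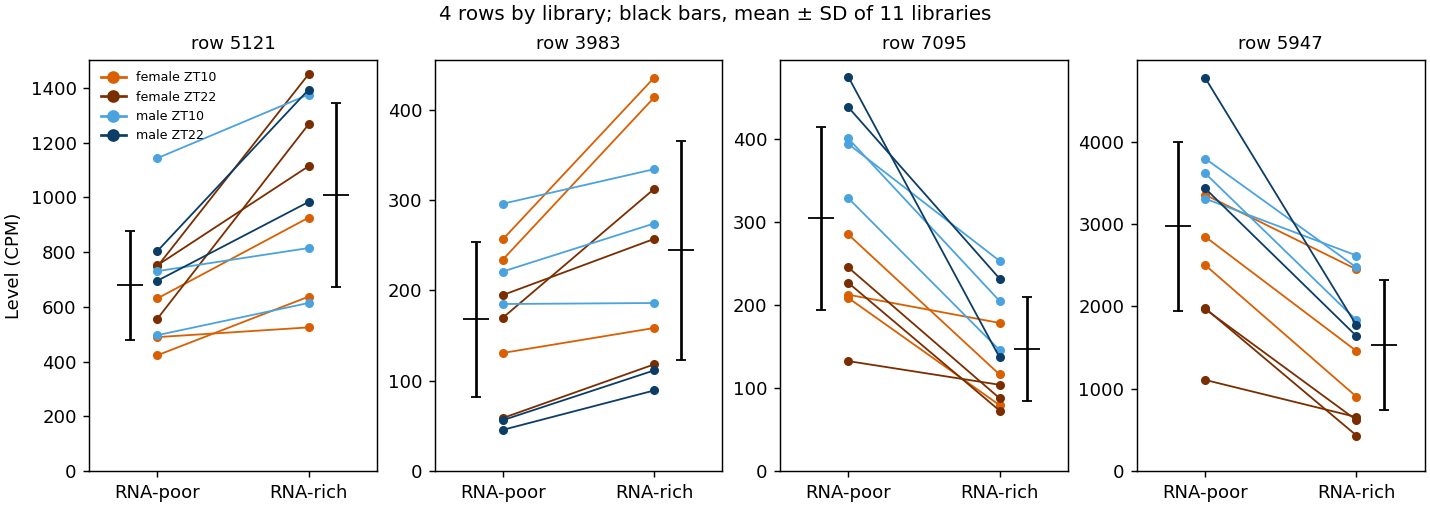
Level (CPM) of 4 rows in the RNA-poor and RNA-rich cells of each of 11 libraries, joined by a line and coloured by group, with mean ± SD in black. All 11 lines go up for rows 5121 and 3983 and down for rows 7095 and 5947, which the rule that chose these rows required.

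The 13 mitochondrial rows are part of the quantity the gate used. Their summed share was 20.4% ± 3.27 of the UMIs of RNA-rich and 17.5% ± 2.02 of those of RNA-poor cells (SD, n = 11). Of the 13, 12 were higher in RNA-rich cells, 9 past the threshold, with log2 differences from -0.04 to 0.78. Without them, 233 rows were called.

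The mitochondrial percent moved with the side, and many rows of both lists moved with it in other cells. In cells of 3501 to 5999 UMIs, which neither side uses, cells with at least 20% mitochondrial UMIs were compared with cells under 14% in the same 11 libraries (limits chosen after the values were seen). These cells were not matched on depth, and within this range mitochondrial percent was mostly higher in the deeper cells, as given below. The part of depth in the comparison was not tested. Of 5141 rows, 5.25% were higher and 2.78% lower in edgeR's test. Of the 91 rows that had risen with depth, 88 were measured and 47 rose while 0 fell. Of the 143 that had fallen, 131 were measured and 71 fell while 0 rose.

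Cells of like mitochondrial percent and intronic fraction were therefore compared. Drawing equal numbers of cells per library from the same classes of both measures left 886 cells per side and 128 called rows of 3080, 32 higher and 96 lower. All 80 measured rows of the 91 were still higher in RNA-rich cells, 29 past the threshold, with a median log2 difference of 0.28. All 108 measured rows of the 143 were still lower, 74 past the threshold, with a median of -0.40. These are largely the same cells, so the counts describe how the choice of cells moved the values. With the mitochondrial percent held to 8 to 15, 5 libraries remained and 8 of 3091 rows were called, all lower. There 61 of 71 and 94 of 108 rows kept their direction, with medians of 0.17 and -0.21. None of the 4 rows given by number was called: row 5121 was at 0.21 (adjusted p = 0.94, edgeR), row 7095 at -0.43 (0.76) and row 5947 at -0.34 (0.38), while row 3983 turned to -0.43 (0.86).

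Intronic fraction was slightly lower in RNA-rich cells. In the same cells of 3501 to 5999 UMIs, an intronic fraction of at least 0.28 was compared with one of at most 0.22 (limits chosen after the values were seen). In the 10 libraries with enough cells 29.9% of 5460 rows were higher and 29.9% lower. Of the 91 rows, 75 were lower and 3 higher in the intron-rich cells. Of the 143, 132 were measured and 61 were higher and 29 lower. With the intronic fraction held to 0.20 to 0.30 in both sides, 9 libraries remained and 149 of 4762 rows were called, 60 higher and 89 lower (edgeR). The part of intronic fraction in the depth difference was not tested beyond this narrower gate and the matched cells.

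Equal numbers of cells per library and cluster gave 52 called rows of 2562, 26 in each direction, a comparison added after the values were seen. Of 76 measured rows of the 91, 69 stayed higher, and of 102 of the 143, 89 stayed lower, with median log2 differences of 0.21 and -0.16. Row 3983 was at -0.13 there (adjusted p = 0.72, edgeR).

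Cells between the 2 sides give values that the choice of members did not use. Inside the same gates, 11 libraries had cells of 4500 to 5999 UMIs and of 3501 to 4499 UMIs. The deeper band also had the higher median mitochondrial percent in all of these libraries except female ZT22 replicate 3. In female ZT22 replicate 2 it was 22.3 against 19.8, and in female ZT22 replicate 3 16.6 against 18.5. The middle bands were not matched on it. Between these bands 78 of 6495 rows were called (1.2%), 24 higher (0.37%) and 54 lower (0.831%) in the deeper cells (edgeR). Of the 91 rows, 81 were higher, 19 of them past the threshold, with a median log2 difference of 0.11. Of the 143, 142 were measured, 137 were lower and 53 passed the threshold, with a median of -0.16. Over all 6495 rows 3250 were higher. Of the 54 calls in the lower direction, 53 were thus rows that had fallen between the sides.

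Row 5121 differed by 0.25 between the middle bands (log2; adjusted p = 2.5e-08, edgeR) and row 3983 by 0.26 (adjusted p = 0.00055). Row 7095 differed by -0.50 (adjusted p = 2.3e-13) and row 5947 by -0.47 (adjusted p = 2.4e-22). The smaller size goes with a smaller difference in depth, and the part of the mitochondrial percent in it was not tested.

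Over the whole range of depth the summed level of the lists followed the UMIs of the cell. As a share of nuclear UMIs, the 91 rows held 4.60% ± 0.62 under 2000 UMIs, 4.89% ± 0.62 at 2000 to 3500, 5.22% ± 0.69 and 5.64% ± 0.64 in the middle bands, and 6.04% ± 0.81 at 6000 to 10000 (SD, n = 11). The 143 rows held 9.98% ± 2.16, 8.80% ± 2.45, 8.17% ± 3.71, 6.85% ± 2.40 and 6.1% ± 2.45. From 2000 UMIs on, the order held over all 4 bands in 8 of 11 libraries for the first list and in 9 of 11 for the second. The bands of 2000 to 3500 and 6000 to 10000 UMIs are the sides that chose the rows. This order is therefore partly set by that choice and is a description. The upper middle band lay beyond the lower in all 11 libraries for both.

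No step appeared at the limits of the sides. The 91 rows held 4.97% of nuclear UMIs in cells of 3000 to 3500 UMIs, just inside the RNA-poor side, and 5.15% in cells of 3501 to 4000, just outside. At the RNA-rich limit they held 5.74% at 5500 to 5999 UMIs and 5.82% at 6000 to 6500. The 143 rows held 8.43% and 8.52% at the lower limit and 6.28% and 6.94% at the upper, out of order at both limits. Without male ZT10 replicate 2 they were in order, at 7.77% and 7.27% and at 5.97% and 5.87% (10 libraries). Over 10000 UMIs only 5 libraries were read, among them male ZT10 replicate 2 with 7 cells. There the lists held 6.04% and 5.33%, and without that library 6.22% and 4.99% (4 libraries). These means do not cover all libraries of the other bands.

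**Figure D3:**
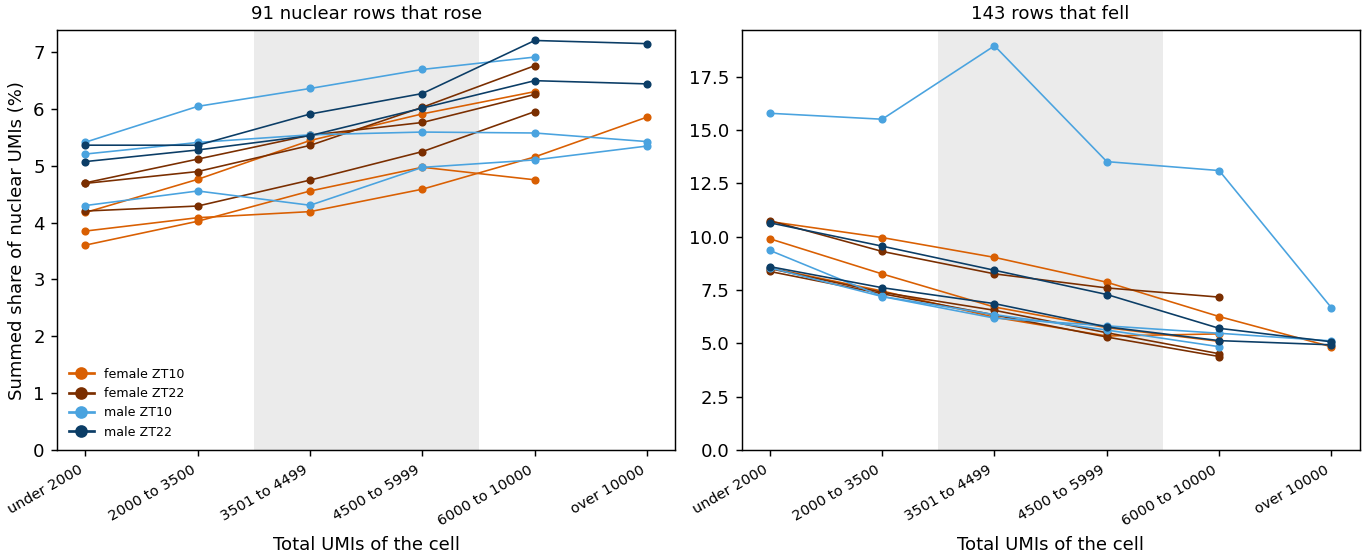
Summed share of nuclear UMIs (%) of the 91 nuclear rows that rose and the 143 rows that fell, by total UMIs of the cell, 1 line per library in the colour of its group. Grey marks the middle bands, which did not choose the rows; male ZT10 replicate 2 is the line far above the others on the right.

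Male ZT10 replicate 2, the library with the fewest cells, stood apart in the rows that fell. They held 15.5% of nuclear UMIs in its RNA-poor and 13.1% in its RNA-rich cells, while the other 10 libraries had 7.20% to 9.96% and 4.39% to 7.17%. It also held all 65 cells of cluster 11, of which 1 was RNA-rich and 1 RNA-poor. All 65 were among the 88 cells that carry its second library mark. In the 4 RNA-rich and 4 RNA-poor cells with that mark the 143 rows held 63.8% and 61.7% of nuclear UMIs, and in the 31 and 84 with the first mark 8.70% and 13.5%. Of the 9 leading rows of that cluster that were tested, 7 fell in RNA-rich cells. Without this library, 256 rows were called, 106 higher and 150 lower. Without only the cells of the second mark, a setting added after the values were seen, 243 rows were called, of which 239 were among the 243 before, with the same sign.

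Rows that lead the clusters set apart were also read in the members. They were picked for a higher level in their cluster than in all other cells, where most members lie. Their levels in the members are thus not independent of that choice. These rows therefore cannot serve as a check on RNA of other cells. Their share of nuclear UMIs was 2.15% ± 2.20 in RNA-rich and 3.45% ± 2.35 in RNA-poor cells (SD, n = 11), lower in all 11 libraries (exact sign-flip permutation test, two-sided p = 0.000977, the smallest it can give; adjusted over 3 measures 0.0029). Nearly all of this came from the leading rows of cluster 11, at 2.13% against 3.42%. Of the 9 tested, 7 are among the 143 rows that fell, so the difference is no support separate from that list. Leading rows of the clusters found in all libraries were close to 0: for cluster 6 0.0070% against 0.0098%, for cluster 8 0.0075% against 0.0113% and for cluster 9 0.0022% against 0.0045%. The difference for cluster 9 was -0.0023 percentage points, lower in 9 of 11 libraries (exact p = 0.0156). Within the main population alone, 298 rows were called, 124 higher and 174 lower.

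Complexity at equal depth differed in a way that did not hold over all settings. After every cell was thinned to 2000 UMIs, RNA-rich cells had 847 ± 56.1 and RNA-poor cells 878 ± 32.3 detected rows (SD, n = 11 libraries). The mean difference was -31.7 ± 40.9, with RNA-rich cells higher in 3 of 11 libraries (exact two-sided sign-flip p = 0.0322, adjusted p = 0.0483). Leaving out 1 library ended this call in 8 of 11 cases, with adjusted p from 0.0293 to 0.0967 over the 11. It was also lost without the second library mark of male ZT10 replicate 2 (-27.6, exact adjusted p = 0.138). When only nuclear UMIs were thinned, to 1500, the difference was -8.68 (exact p = 0.322), and in the matched cells it was 9.14 (exact p = 0.375). The call was kept after thinning to 1000 UMIs (-19.2, exact sign-flip adjusted p = 0.0410). It was also kept in cells matched on cluster, a setting added after the values were seen (-39.1, exact sign-flip adjusted p = 0.0044). There RNA-rich cells were higher in 1 of 11 libraries. Unthinned, RNA-rich cells had 2041 detected rows against 1120.

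The 100 most abundant nuclear rows held 42.8% ± 3.33 of nuclear UMIs in RNA-rich and 42.0% ± 2.22 in RNA-poor cells (SD, n = 11), a difference of 0.81 ± 2.38 percentage points, higher in 6 of 11 libraries (exact two-sided sign-flip p = 0.287). At ZT22 the mean difference was 2.77 ± 1.83 (n = 5) and at ZT10 -0.82 ± 1.26 (n = 6). Exact permutation of the libraries gave p = 0.0130 for this contrast and 0.0779 after adjustment over 6 such contrasts, so it did not pass.

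**Figure D4:**
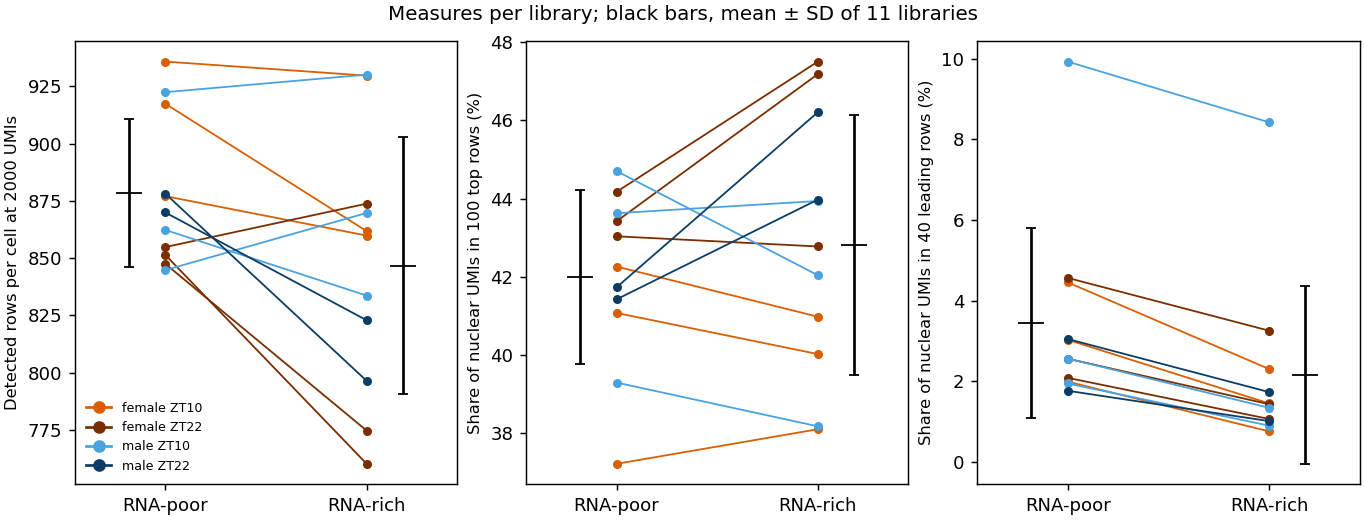
Detected rows per cell after thinning to 2000 UMIs, share of nuclear UMIs in the 100 most abundant nuclear rows (%) and share in the 40 rows leading the clusters set apart (%), for RNA-poor and RNA-rich cells of 11 libraries with mean ± SD in black. The third share is lower in RNA-rich cells in all 11 libraries, and the first is higher in 3 of 11.

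Below the mitochondrial gate the same depth bands gave other values. Cells with under 8% mitochondrial UMIs and the same intronic range had at least 20 cells on both sides in 4 libraries, female ZT10 replicates 1 and 2, male ZT10 replicate 1 and male ZT22 replicate 3, with 20 to 37 RNA-rich cells. In these libraries 94.6% to 100% of the deeper cells lay in the main population, against 61.2% to 94.8% of the shallower cells. The lowest shares were in female ZT10 replicate 2 (61.2%) and male ZT10 replicate 1 (65.0%). Cell groups thus differed with depth here, and their part was not tested beyond the main population alone, given below. Of 4927 rows 81 were called (1.64%), 22 higher (0.447%) and 59 lower (1.2%) in the deeper cells (edgeR). Over all 4927 rows 2560 were higher in the deeper cells. Of the 143 rows that fell above the gate, 128 were measured. Of these, 97 were higher in the deeper cells, 6 past the threshold, against 31 lower, 11 past it. Their median log2 difference was 0.29, and it was 0.16 to 0.37 when each library was left out. As a sum they differed less: the deeper cells held 6.76% against 7.37% of nuclear UMIs in female ZT10 replicate 1, 9.79% against 9.76% in female ZT10 replicate 2, 6.80% against 6.31% in male ZT10 replicate 1 and 6.14% against 6.01% in male ZT22 replicate 3.

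The 91 rows showed no shared direction below the gate. Of 78 measured, 34 were higher and 44 lower, 1 of them past the threshold, with a median log2 difference of -0.03. In the main population alone 36 of 4012 rows were called (0.897%), and the medians were 0.18 for the rows that fell above the gate and -0.02 for those that rose. These 4 libraries are 3 from ZT10 and 1 from ZT22. In data simulated from these sums, 22 of 100 rows changed 1.5-fold were recovered.

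Row 7095, which fell above the gate, was at 0.50 below it (log2; adjusted p = 0.115, edgeR), and row 5947 was at 0.53 (adjusted p = 0.0334). Row 3983 was at -0.87 (adjusted p = 0.0122) and row 5121 at -0.40 (adjusted p = 0.211). For all 4 rows the sign was the reverse of that above the gate.

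The difference between the gates was tested itself in the 4 libraries, a comparison added after these values were seen. Of 8372 rows, 155 (1.85%) had a rich minus poor difference that differed between the gates (edgeR), 100 larger (1.19%) and 55 smaller (0.657%) above the gate. Of the 143 rows 39 were called smaller above the gate and 7 larger, and of the 91 rows 11 were called larger and 0 smaller. The lists were chosen from these same cells above the gate, so only the values below it are independent of that choice. In the main population 90 rows were called, with 45 of 140 rows of the second list smaller and 0 larger. All 4 named rows passed, with differences of 0.76 for row 5121 (adjusted p = 0.0091, edgeR), 1.36 for row 3983 (adjusted p = 0.00044), -1.28 for row 7095 and -1.20 for row 5947 (both adjusted p = 3.5e-05). Without female ZT10 replicate 2 the count was 29 and without male ZT10 replicate 1 it was 41.

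**Figure D5:**
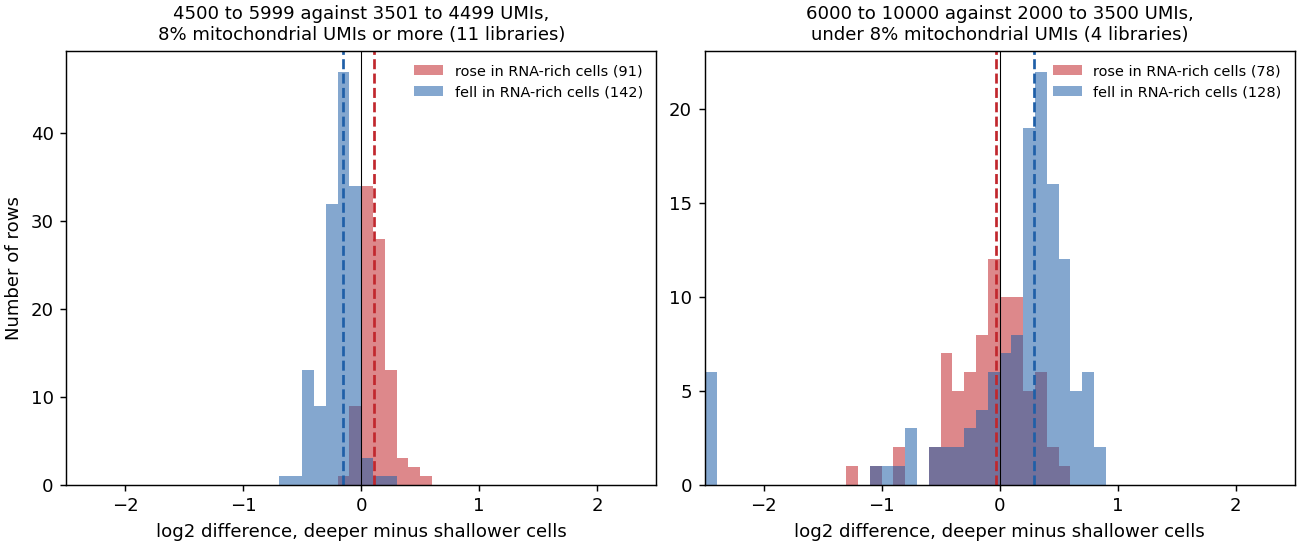
Histograms of the log2 difference, deeper minus shallower cells, for the rows that rose (red) and fell (blue) in RNA-rich cells, measured in cells that did not choose them, with medians dashed and values beyond the axis drawn in the outermost bars. In the middle bands (left) the lists lie on opposite sides of 0, with medians of 0.11 and -0.16; below the mitochondrial gate (right) the rows that fell have a median of 0.29.

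Female and male libraries were also tested apart, so that no library is in both fits. In the 6 female libraries 190 rows were called (2.96%), and of the 171 measured in males 162 had the same sign there, 33 past the threshold. In the 5 male libraries 39 rows were called (0.57%), and 35 of the 36 measured in females had the same sign. Over the 6213 rows in both fits 58.2% had the same sign, and the differences correlated across rows with Pearson's r = 0.29 and Spearman's rho = 0.23. Rows are not independent replicates and these values are a description.

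The times gave a like picture. At ZT10 68 rows were called (1.02%), of which 64 of 66 measured at ZT22 had the same sign, and at ZT22 288 (4.56%), of which 222 of 273 measured at ZT10 did. Among all 6101 rows in both fits 57.0% had the same sign. The larger count at ZT22 is not itself a test of a difference between the times.

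Tested as an interaction, the rich minus poor difference depended on sex in 6 of 6428 rows (0.0933%), 4 with a larger value in females (0.0622%) and 2 with a larger value in males (0.0311%; edgeR). At an unadjusted p under 0.05 there were 312 rows, and DESeq2 called 1. Of 100 simulated rows whose difference differed 2-fold between the sexes, 48 were recovered.

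Row 4269 was the clearest of these. Female RNA-rich cells had 178 to 440 CPM with a median of 349, and female RNA-poor cells 124 to 511 with a median of 330, so the sides overlapped. In males the RNA-rich cells had 173, 34.8 and 12.8 CPM at ZT10 and 65.4 and 120 CPM at ZT22, against 225, 50.03, 119, 340 and 323 CPM in the RNA-poor cells of the same libraries. Some of these rest on few UMIs: the 34.8 and 12.8 CPM are 9 and 5 UMIs, and the 50.03 CPM are 12. All 5 male libraries were lower on the RNA-rich side, and 4 of 6 female libraries were higher. The female minus male difference in log2 was 1.34 ± 0.20 (SE; adjusted p = 1.0e-05, edgeR), and with DESeq2 it was 1.60 with an adjusted p of 1.0. Among libraries sharing the opening number of their cell names, the log2 differences were 0.52 in a female against -3.13 in a male, 0.31 against -1.42, -0.22 against -2.36, and -0.69 and 0.30 in 2 females against -0.38 in a male. The male was thus lower in 3 of these 4 sets and between the females in the other. With side by opening number in the model the difference was 1.30 (adjusted p = 0.0012, edgeR), and 11 rows were called.

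Row 4947 was almost absent in females, with 0 to 9.02 CPM in RNA-rich and 1.68 to 51.0 CPM in RNA-poor cells, 10 and 153 UMIs in all. In males it had 313 to 515 CPM in RNA-rich and 372 to 644 CPM in RNA-poor cells. The female minus male difference was -2.09 ± 0.41 (SE; adjusted p = 0.0041, edgeR). It rests on few female UMIs and did not pass without female ZT22 replicate 2 (-1.35, adjusted p = 1.0, edgeR), with DESeq2 (-2.06, adjusted p = 0.243) or with replicate number by side as a block (-1.85, adjusted p = 0.103, edgeR).

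The opening numbers of the cell names cannot be told apart from time, as stated above. Between ZT22 and ZT10 libraries the rich minus poor difference differed in 21 rows (0.327%), 8 with a larger value at ZT22 (0.124%) and 13 with a smaller one (0.202%, edgeR). The count was 480 at an unadjusted p under 0.05, 3 with DESeq2, 3 without male ZT10 replicate 1, 5 without male ZT22 replicate 1, 11 without female ZT10 replicate 1, 39 without female ZT10 replicate 2 and 52 without female ZT22 replicate 3. Row 5947 was among the 21, with a ZT22 minus ZT10 difference of -0.63 ± 0.14 (SE; adjusted p = 0.0167, edgeR; -0.60 with an adjusted p of 0.249 in DESeq2). Its within-library log2 differences averaged -0.80 ± 0.42 at ZT10 (SD, n = 6) and -1.42 ± 0.56 at ZT22 (n = 5).

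Row 2819 was low in females, at 6.70 to 26.4 CPM in female RNA-rich cells against 591 to 3818 CPM in male ones. At ZT10 the males had 1607, 591 and 1200 CPM in RNA-rich and 2159, 471 and 1330 CPM in RNA-poor cells. At ZT22 they had 3818 and 1318 CPM against 1663 and 949 CPM. Only the ZT22 males were all higher on the RNA-rich side, and the ZT22 minus ZT10 difference was 0.97 ± 0.18 (SE; adjusted p = 0.0008, edgeR). It did not pass without male ZT10 replicate 1 (0.78, adjusted p = 0.144) or male ZT22 replicate 1 (0.62, adjusted p = 0.398), nor with DESeq2 (0.72, adjusted p = 0.319).

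Row 2580 fell in RNA-rich cells of all 11 libraries, and more so at ZT22. Its within-library log2 differences averaged -0.60 ± 0.39 at ZT10 (SD, n = 6) and -1.33 ± 0.34 at ZT22 (n = 5), from -1.06 to -0.13 and from -1.72 to -0.86. The difference between the times was -0.91 ± 0.18 (SE; adjusted p = 0.0034, edgeR), and it did not pass without female ZT10 replicate 1, male ZT10 replicate 1 or male ZT22 replicate 3 (adjusted p = 0.0600, 0.144 and 0.130). DESeq2 gave -0.85 and no adjusted p for this row.

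The lists were also read for sex and time themselves, in cells of the middle bands summed per library (12 libraries). Between females and males 3.68% of 9238 rows were higher and 2.74% lower in females, and of the 91 rows 11 were higher and 6 lower in females, of the 143 21 and 21. At ZT22 6.44% of these rows were higher and 5.19% lower than at ZT10, and of the 91 rows 13 were higher and 4 lower at ZT22, of the 143 25 and 6. Except for the rows lower at ZT22, these shares were above those over all rows, but the lists hold more abundant rows than the table as a whole, and this was not adjusted for.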

How the data were processed

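Single-cell libraries of 12 mouse liver samples were compared. Per the submitters' processing notes, Cell Ranger 6.1.2, Seurat and the build mm10 were used, and cell filters are not given in the sources used here. The authors deposited raw UMI counts per row and cell, with metadata that, per the file headers, give each cell's total count, its intronic fraction (a fraction whose denominator is not stated) and the percent of mitochondrial and caspase UMIs. Counts equalled the metadata in all 31003 cells. No column belonged to other samples (0). None of the 6281 members held a caspase UMI; a filter may have set this 0, so it allows no limit on a share.

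UMIs were summed per library and side, with 211748 to 1374932 UMIs in the RNA-rich and 250955 to 2221193 in the RNA-poor sums. The sums were tested with edgeR 4.0.16 in R 4.3.3 (quasi-likelihood test, TMM, filterByExpr by side, Benjamini-Hochberg, threshold 0.05). Library was a block, since both sums of a library come from the same cell suspension; this is the pairing. Interactions of side with sex and time came from a model holding both. The test was checked on simulated data: for RNA-rich against RNA-poor cells, 9 of 176 calls were false. TMM also scaled the CPM. Exact sign-flip permutation tests of the 3 measures per library were computed in Python 3.11.15 over every combination of signs, with p-values adjusted over the 3. Other steps used scipy 1.17.1.

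Rows given by number had an adjusted p under 0.05, at least 100 CPM on the higher side and 1 direction in all libraries, and the 2 largest changes each way were taken; 16 rows that rose and 44 that fell met these limits. For interactions the row with the smallest adjusted p in each direction was taken. The members, lists and tests were chosen with earlier results of these data known. Clusters came from 2000 variable rows, 8 principal components and 15 neighbours (Leiden, igraph 0.11.9, resolution 0.3) and stay unnamed. No doublet was removed, and doublets among the RNA-rich cells were not tested for. Alternatives were DESeq2 1.42.0, no count filter, no mitochondrial rows, equal UMIs per side, the main population, cells picked by rows other than those tested, narrower gates, cells matched on the gate measures, at least 50 cells per side, no library block and each library left out. Matching on cluster, the opening number of cell names, leaving out the second library mark of male ZT10 replicate 2 and the test between gates were added after seeing the data. Cells over 10000 UMIs were left out of the members because caspase UMIs occur among them and in no member.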

Additional observations from a re-analysis of the deposited data

Results flagged for a closer look

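The rich minus poor difference differed between the sexes in 6 rows, between ZT22 and ZT10 in 21 and between cells above and below the mitochondrial gate in 155 (edgeR interaction terms, adjusted p under 0.05). Row 4269 differed by 1.34 (log2, female minus male) and row 4947 by -2.09. Row 2819 differed by 0.97 (log2, ZT22 minus ZT10) and row 2580 by -0.91. Of the 117 cells inside both gates with over 10000 UMIs, a UMI of the caspase rows was present in 58, or 49.6% (95% binomial interval, exact, 40.2 to 59.0). Among the 6281 members it was present in 0, which a filter of the deposited cells may have set.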

How the results depend on the processing

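The count of 243 called rows stayed within 1.5 times in each of 11 fits without 1 library (185 to 291) and in 8 of 14 others. It was 149 at an intronic fraction of 0.20 to 0.30 (9 libraries), 128 in cells matched on mitochondrial percent and intronic fraction (121 without mitochondrial rows), 52 in cells matched on cluster, 8 at 8 to 15% mitochondrial UMIs (5 libraries) and 26 with no replicate block, that is, without pairing the sides of a library. At most 1 called row had the opposite sign in any of these settings. Without the block the middle bands gave 0 calls (138 at an unadjusted p under 0.05, edgeR; 52 with DESeq2 and the block) and the cells below the gate 5. With the replicate number by side as a block, the sex interaction had 3 and the time interaction 32 calls; the labels do not say what a number marks. With side by the number opening the cell names, the sex interaction had 11, a setting chosen after seeing the data. DESeq2 gave 1 and 3, and 16 below the gate. Without a count filter the time interaction had 43 calls and the cells below the gate 346. Below the gate the count was 25 at equal UMIs and 36 in the main population, and the test between gates gave 90 in the main population. Leaving out 1 library gave 3 to 7 calls for sex, 3 to 52 for time, 54 to 91 for the middle bands, 45 to 219 below the gate and 29 to 227 between gates. Detected rows at equal depth differed by -37.4 to -25.8 without 1 library (8 of 11 no longer past the threshold), by -27.6 without the second library mark of male ZT10 replicate 2 (adjusted p = 0.138), by -8.68 for nuclear UMIs (adjusted p = 0.322), by 9.14 in matched cells (0.375) and by -28.9 in the main population (0.0542). The call for detected rows was kept at 1000 UMIs (-19.2, exact sign-flip adjusted p = 0.0410) and in cells matched on cluster (-39.1, adjusted p = 0.0044). The share of the 100 most abundant rows differed by -0.50 in matched cells and by 0.45 to 1.16 without 1 library. The share of leading rows differed by -0.0028 for cluster 6 alone, by -0.0038 for cluster 8 alone and by -1.35 to -1.21 without 1 library. Row 3983 reversed to -0.43 at 8 to 15% mitochondrial UMIs and to -0.13 in cells matched on cluster. Of 173 refits of the 8 numbered rows that gave an adjusted p, 156 kept direction and call, 15 lost the call and 2 reversed. The causes were not tested.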
